A study of Rattus norvegicus with 26 samples.

Results

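The miR-30 family was followed across 26 single-colour rat miRNA microarrays of liver, 1 rat per array. Its 5 guide strands (rno-miR-30a, rno-miR-30b-5p, rno-miR-30c, rno-miR-30d and rno-miR-30e) were taken by name from the 677 miRNAs of the array, leaving out the 6 opposite arms of their hairpins, which are described separately. Male Sprague-Dawley rats lost either the left lateral lobe (1/3 partial hepatectomy, 1/3 PH, 30% of the liver mass by the labels) or about 70% of the mass (2/3 PH), and the right lobes were collected 6, 12, 24 or 36 hours later. The control was normal liver. Each of the 9 groups held 3 rats except the 6 hour group of 1/3 PH, which held 2. The labels name no transgene or drug, and the normal livers carry the word sham in a protocol label although the protocol text describes rats without PH. For some arrays the source label reads 13, 14, 25, 26, 37 or 38 hours, and the times here are those of the titles. Whole lobe RNA was used, so that fewer cells of a type and less RNA per cell cannot be told apart.

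A miRNA guide strand is loaded into an Argonaute protein and lowers the output of mRNAs that pair with its seed, the bases near its 5′ end. All miR-30 guides share their seed and so most predicted targets, but come from several hairpins, each of which also yields an opposite (star or 3p) arm that is usually degraded. The family is widely expressed in epithelial organs, liver and kidney among them, and has been studied for keeping cells in a differentiated state.

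RefSeq sequences (build GRCr8) were matched by name for 3 of the 5 guides: rno-miR-30a, rno-miR-30c and rno-miR-30e. They are shown because miR-30e, which carried most of the calls, shares its sequence closely with miR-30a and its hairpin cluster with miR-30c. Capitals mark the seed (bases 2 to 8).
rno-miR-30a-5p: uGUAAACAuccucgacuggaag
rno-miR-30e-5p: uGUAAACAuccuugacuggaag
rno-miR-30c-5p: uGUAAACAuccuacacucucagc
The seed GUAAACA was the same in these 3. Counted from 1 at the 5′ end, miR-30a and miR-30e were the same at 21 of 22 positions and differed by C13U, while miR-30c was the same as either at 17 of the 22 positions compared and is 1 base longer. How far the array's probes separate miR-30a from miR-30e was not tested.

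The miR-30e guide lies at chr5:139637504-139637525 (minus strand). Its hairpin is 2906 bases from the hairpin Mir30c1, whose miR-30c guide lies at chr5:139634505-139634527, and both lie within the span of Nfyc, which encodes a subunit of the transcription factor NF-Y. The miR-30a guide lies at chr9:33233946-33233967 (plus strand), with the hairpin Mir30c2 19670 bases away and a second copy of the same miR-30c guide at chr9:33253695-33253717, and no protein-coding gene of the annotation spans either hairpin. The array therefore reads the 2 sources of miR-30c as 1 value. The hairpins of miR-30b and miR-30d neighbour each other.

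The arrays were alike in quality except one. Summed signal was 57383 to 93760 units and 118 to 155 miRNAs were detected on 25 arrays, against 17273 units and 91 miRNAs on replicate 2 of 12 hours after 1/3 PH, here called the dim array. They were spread over 6 slides, which were scanned on 3 days. The 3 hepatocyte markers on the array (miR-122, miR-192 and miR-194) were detected on all 26 arrays, and their summed level, which is mostly the signal of miR-122, had group means between 7.34 and 7.55 (log2 of scaled signal). Among 16 tested markers of hepatocytes, leukocytes, red cells, vessels and bile ducts, 0 to 5 passed the test in any comparison.

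All 5 members were detected on all 26 arrays, each by 2 probes of 10 spots, and no member spot was saturated. Levels are given as log2 of the signal relative to the array's 75th percentile, so that a value compares 1 member between arrays but not different members with each other. Over all arrays miR-30a signals ran from 33.5 to 269 units, miR-30b-5p from 30.2 to 179, miR-30c from 42.7 to 136, miR-30d from 30.7 to 110 and miR-30e from 14.6 to 118. The lowest signal of each member was on the dim array. Group means of miR-30e spanned 0.57 (log2), against a pooled SD between rats of a group of 0.14. The same span was 0.37 for miR-30a (pooled SD 0.12), 0.48 for miR-30b-5p (0.21), 0.35 for miR-30c (0.18) and 0.33 for miR-30d (0.19). Membership of the 9 groups held 75.5% of the variation of miR-30e, 60.8% of that of miR-30a, 46.3% for miR-30b-5p, 33.2% for miR-30c and 25.3% for miR-30d. These shares are not corrected for the number of groups, and 9 groups hold some variation even where none differs.

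**Figure D1:**
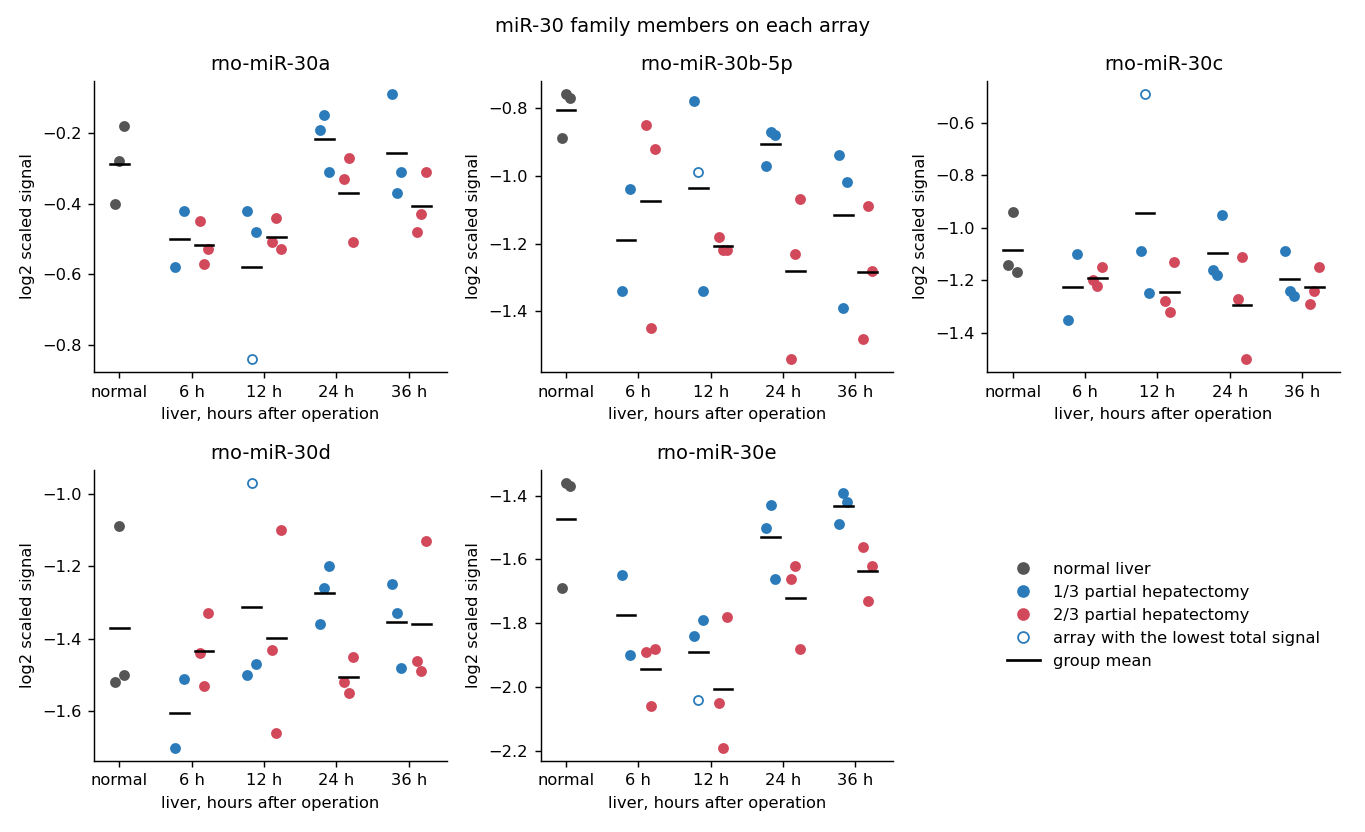
Log2 scaled signal (y axis) of the 5 members on each of the 26 arrays, by group and hours after the operation (x axis), with a bar at each group mean and the dim array as an open circle. The miR-30e means fall from -1.48 in normal liver to -2.01 at 12 hours after 2/3 PH and stand at -1.43 at 36 hours after 1/3 PH.

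The 4 lowest of the 9 group means of miR-30e were those of 6 and 12 hours after either operation. In normal liver its log2 level was -1.69, -1.36 and -1.37. At 6 hours it was -1.65 and -1.90 after 1/3 PH and -1.89, -2.06 and -1.88 after 2/3 PH. At 12 hours it was -1.84, -2.04 and -1.79 after 1/3 PH and -2.05, -2.19 and -1.78 after 2/3 PH. All 3 arrays of each of the last 3 groups named lay below all 3 normal livers, while the groups overlapped at 6 hours after 1/3 PH. The share of all tested miRNAs without overlap is not given here or below, so non-overlap is a description and not a test.

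At the later hours the levels of miR-30e lay closer to normal liver. They were -1.50, -1.43 and -1.66 at 24 hours after 1/3 PH and -1.66, -1.62 and -1.88 after 2/3 PH. At 36 hours the rats of 1/3 PH had -1.49, -1.39 and -1.42 and those of 2/3 PH -1.56, -1.73 and -1.62. Both operations overlapped with normal liver at 24 and at 36 hours. Ordered by mean, 36 hours after 1/3 PH (-1.43), normal liver (-1.48) and 24 hours after 1/3 PH (-1.53) came first and 6 (-1.94) and 12 hours (-2.01) after 2/3 PH last, and no neighbours in this order of 9 groups differed by more than the larger of their SDs.

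Against normal liver, miR-30e fell at 12 hours after 2/3 PH to 69.2% of its level, a log2 fold change of -0.53 (SE 0.13, limma adjusted p = 0.0192 over 144 miRNAs). It was the only member called among 20 tests of 2/3 PH against normal liver. In that comparison 6.94% of all miRNAs were called, 9 of the 10 of them lower. The other early values of miR-30e did not pass the test: -0.47 at 6 hours after 2/3 PH (SE 0.13, adjusted p = 0.0703), -0.41 at 12 hours after 1/3 PH (SE 0.13, adjusted p = 0.0564) and -0.30 at 6 hours after 1/3 PH (SE 0.14, adjusted p = 0.765). No comparison at 6 hours called any miRNA (0.0% of 144), so the last value stands beside a test that gave no calls, with 8 miRNAs at an unadjusted p under 0.05 for 1/3 PH and 15 for 2/3 PH.

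The call at 12 hours after 2/3 PH was lost without normal replicate 2 (log2 fold change -0.48, adjusted p = 0.0882), without normal replicate 3 (-0.48, 0.106) or without replicate 2 of the operated group (-0.44, 0.136). With slide as a fixed block the value was -0.52 (adjusted p = 0.128), and with scan day as a block -0.49 (0.0454). Normexp background correction, run with an offset of 50 units added to each spot, gave -0.09 (0.938). Such an offset by itself shrinks fold changes of signals as dim as these. The normexp values here and below therefore cannot separate background correction from the offset. Unscaled arrays gave -0.79 (0.511) and the 75th percentile over all probes -0.85 (0.955). The deposited log2 values gave -0.51 (0.246) and a fit of only the groups compared -0.53 (0.245). The brighter miR-30e probe gave -0.51 and the dimmer one -0.17. On the first scan day the difference was -0.43 with 2 operated arrays and 1 normal array, and on the third -0.41 with 1 of each. The hepatocyte marker miR-192 was lower in the same comparison (log2 fold change -0.34, adjusted p = 0.0274), and it was the only one of the 16 markers called there. The summed level of the 3 hepatocyte markers, mostly miR-122, was not lower, with a mean of 7.54 against 7.44 in normal liver. The part of miR-192's change in the miR-30e result was not tested.

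Both later hours of 2/3 PH gave values for miR-30e that did not pass the test, -0.24 at 24 hours (adjusted p = 0.253) and -0.16 at 36 hours (adjusted p = 0.4). After 1/3 PH they were -0.05 at 24 hours (adjusted p = 0.926) and 0.04 at 36 hours (adjusted p = 0.927).

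From early to late hours miR-30e rose after both operations, though not under every scaling and background correction. The 24 and 36 hour arrays of 1/3 PH had a mean of -1.48 against -1.83 for 6 and 12 hours, a log2 fold change of 0.35 (SE 0.09, adjusted p = 0.0243), and 5 of 6 late arrays lay above all 5 early ones. After 2/3 PH the means were -1.68 and -1.98, a log2 fold change of 0.30 (SE 0.09, adjusted p = 0.0134), and 5 of 6 late arrays lay above all 6 early ones. The test called 9.72% of miRNAs late against early after 1/3 PH and 34.7% after 2/3 PH, so a call after 2/3 PH was common among all miRNAs. The rise did not pass the test of a difference between the operations: log2 -0.05 with a 95% interval of -0.32 to 0.22 (adjusted p = 0.865). That comparison called 6.94% of miRNAs and 0 of the 5 members, also 0 at an unadjusted p under 0.05 (limma).

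After 2/3 PH the call held without any 1 of the 26 arrays, with log2 fold changes of 0.25 to 0.36. After 1/3 PH it was lost without the dim array (0.31, adjusted p = 0.0592), without replicate 2 of 6 hours (0.29, 0.188), without replicate 1 (0.34, 0.0645) or 2 (0.32, 0.0769) of 24 hours and without replicate 2 of 36 hours (0.34, 0.0568). After 1/3 PH the rise was 0.35 within the first scan day (5 late and 4 early arrays) and 0.38 within the third. The latter set 1 late array against 1 early array, the dim array. After 2/3 PH it was 0.33 within the first day (3 late, 4 early) and 0.21 within the third (1 late, 2 early). With slide as a random block the rise was 0.28 after 2/3 PH (adjusted p = 0.0476) and 0.33 after 1/3 PH (adjusted p = 0.0861). No slide held both early and late arrays of 2/3 PH, so slide and time cannot be told apart there. The rise also rested on the brighter miR-30e probe, which carried 86.1% of the signal and was well above background on all 26 arrays. That probe gave 0.35 after 1/3 PH and 0.30 after 2/3 PH, and the dimmer one, well above background on 7 arrays, gave -0.19 and -0.12.

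The rise depended on scaling, and it was not called with normexp, whose offset shrinks fold changes. With the 75th percentile over all probes miR-30e had -0.02 after 1/3 PH (adjusted p = 0.973) and 0.23 after 2/3 PH (0.924), in a scaling that put the median of all miRNAs at -0.45 and -0.04, against -0.08 and 0.04 in the scaling used here. Quantile normalization gave 0.31 after 1/3 PH (adjusted p = 0.091) and 0.13 after 2/3 PH (0.355), and the deposited log2 values gave 0.56 (0.0422) and 0.22 (0.334). Normexp background correction gave -0.09 (0.753) and 0.06 (0.999), with medians of all miRNAs at -0.25 and -0.03. Beside the rise, the hepatocyte marker miR-192 was higher late than early after 1/3 PH (0.23, adjusted p = 0.0341). The other hepatocyte markers, miR-122 and miR-194, were not called there. After 2/3 PH the leukocyte miRNAs miR-146a (-0.60, 0.0014) and miR-150 (-0.51, 0.00117) fell, while miR-142-3p and miR-223 were not called. The epithelial miR-200a (0.56, 0.0462), miR-200b (0.65, 0.0167) and miR-429 (0.83, 0.00386) rose. The part of these markers in the miR-30e values was not tested.

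Over the 4 times together, miR-30e fell by 0.35 on the log2 scale after 2/3 PH against normal liver (SE 0.10, adjusted p = 0.0414), to a fold of 0.784, with 8 of 12 arrays below all normal livers. In this comparison 11.1% of miRNAs were called. For 1/3 PH the value was -0.18 (adjusted p = 0.438), where 0.0% of miRNAs were called by limma and 15 had an unadjusted p under 0.05. The 2 operations differed in it by -0.17 (95% interval -0.31 to -0.04, adjusted p = 0.155), in a comparison that called 3.47% of miRNAs. The call for 2/3 PH was lost without any 1 of 10 arrays, among them normal replicates 2 (-0.29, 0.17) and 3 (-0.30, 0.207), and with scan day as a block (-0.33, 0.0542). Within the 3 scan days the difference was -0.21, -0.28 and -0.39, with 1 normal array each. Normexp turned its sign, to 0.14 (adjusted p = 0.66), with the median of all miRNAs at 0.35 against 0.06. In the same comparison the leukocyte miRNAs miR-142-3p (-0.76) and miR-150 (-0.41) fell and the epithelial miR-200b (0.78) and miR-429 (0.77) rose, all with adjusted p = 0.0414, and their part in the result was not tested.

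**Figure D2:**
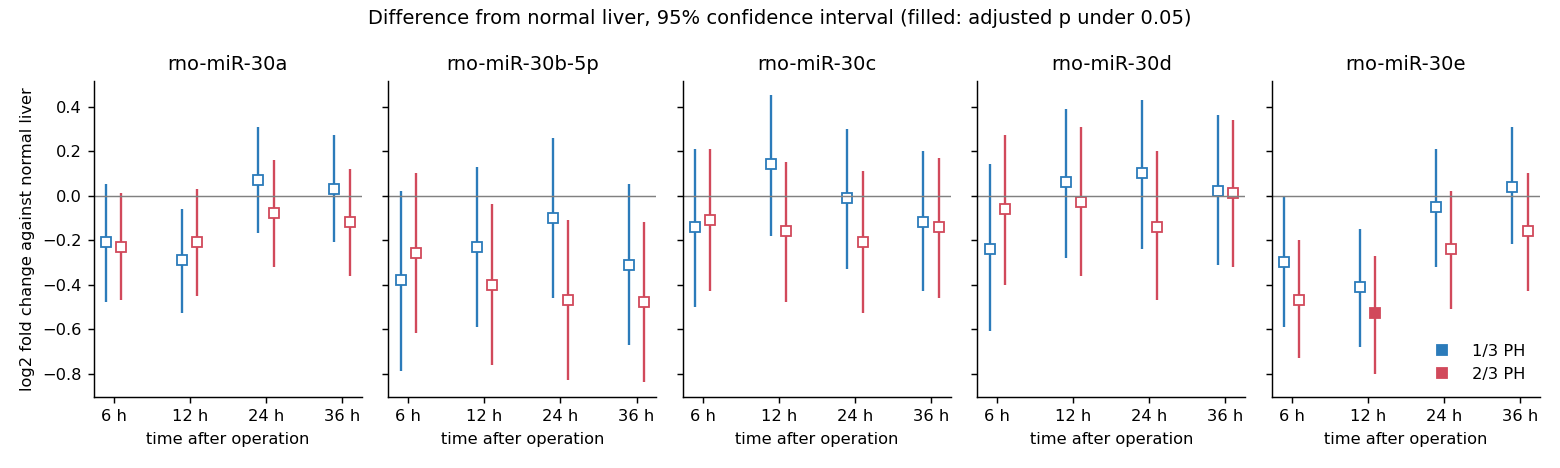
Log2 fold change against normal liver (y axis) of each member at 6, 12, 24 and 36 hours (x axis) after 1/3 PH and 2/3 PH, as squares with 95% confidence intervals, filled where the adjusted p was under 0.05. The single filled square is miR-30e at 12 hours after 2/3 PH, at -0.53.

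miR-30a, which shares all but 1 base with miR-30e, also had its 4 lowest group means at 6 and 12 hours. Its log2 level was -0.40, -0.28 and -0.18 in normal liver. At 6 hours it was -0.58 and -0.42 after 1/3 PH and -0.45, -0.57 and -0.53 after 2/3 PH. At 12 hours it was -0.42, -0.84 (the dim array) and -0.48 after 1/3 PH and -0.51, -0.44 and -0.53 after 2/3 PH. All 11 of these early arrays lay below all 3 normal livers, again without a share over all miRNAs to set beside it.

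None of these early differences of miR-30a passed the test. They were -0.21 and -0.29 (log2) at 6 and 12 hours after 1/3 PH (adjusted p = 0.765 and 0.109) and -0.23 and -0.21 after 2/3 PH (adjusted p = 0.405 and 0.37). At 12 hours after 1/3 PH 4.17% of all miRNAs were called.

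By 24 hours miR-30a was at -0.19, -0.15 and -0.31 after 1/3 PH and at -0.33, -0.27 and -0.51 after 2/3 PH. At 36 hours it was at -0.09, -0.37 and -0.31 after 1/3 PH and at -0.48, -0.43 and -0.31 after 2/3 PH. These 4 groups overlapped with normal liver, with log2 fold changes of 0.07 and 0.03 after 1/3 PH and -0.08 and -0.12 after 2/3 PH. No neighbours in the order of its 9 group means differed by more than the larger SD.

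Late against early, miR-30a rose after 1/3 PH by 0.30 (log2, SE 0.09, adjusted p = 0.0301), and all 6 late arrays lay above all 5 early ones, given without the share over all miRNAs. After 2/3 PH its value was 0.12 (SE 0.08, adjusted p = 0.287), with 4 of 6 late arrays above all early ones. The difference between these was -0.18 with a 95% interval of -0.43 to 0.06 (adjusted p = 0.455), so the 2 operations were not shown to differ. The 1/3 PH call was lost without the dim array (0.24, adjusted p = 0.0592), without either array of 6 hours (0.27, 0.176 and 0.34, 0.0757), without replicate 1 (0.30, 0.0714) or 2 (0.29, 0.0769) of 24 hours, and without replicate 1 of 36 hours (0.26, 0.0787). Its 2 probes gave 0.29 and 0.31. The rise was 0.25 within the first scan day and 0.53 within the third, where 1 late array stood against 1 early array, the dim array. With slide as a random block the rise was 0.30 (adjusted p = 0.0744), with quantile normalization 0.21 (0.171), with normexp 0.05 (0.783) and with the 75th percentile over all probes -0.06 (0.915).

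**Figure D3:**
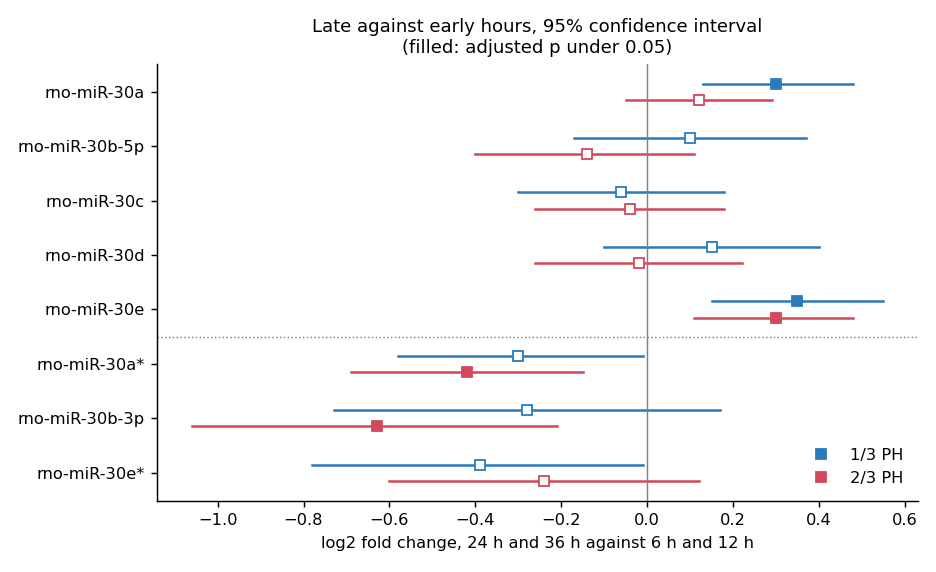
Log2 fold change of 24 and 36 hours against 6 and 12 hours (x axis) for the 5 members and, under the dotted line, the 3 opposite arms that were tested, after 1/3 PH and 2/3 PH, as squares with 95% confidence intervals, filled where the adjusted p was under 0.05. miR-30e lies above 0 after both operations (0.35 and 0.30), and the 3 opposite arms lie below 0.

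miR-30b-5p, which comes from another pair of neighbouring hairpins, had its 2 lowest group means (both -1.28) in the late groups of 2/3 PH. Normal livers stood at -0.89, -0.76 and -0.77 (log2). After 2/3 PH the levels were -0.85, -1.45 and -0.92 at 6 hours and -1.18, -1.22 and -1.22 at 12 hours. They were -1.54, -1.23 and -1.07 at 24 hours and -1.48, -1.09 and -1.28 at 36 hours. Thus 11 of 12 arrays after 2/3 PH lay below all normal livers. The groups did not overlap at 12, 24 or 36 hours, given without the share over all miRNAs.

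No value of miR-30b-5p passed the test. The log2 fold changes after 2/3 PH were -0.26, -0.40, -0.47 and -0.48 at 6, 12, 24 and 36 hours, with adjusted p = 0.602, 0.209, 0.066 and 0.0576. At 24 hours 18.1% and at 36 hours 18.8% of all miRNAs were called against normal liver, beside 0 of 5 members. With 5 members, 0 calls cannot be told apart from these shares. Over the 4 times the value was -0.40 (SE 0.14, adjusted p = 0.0639). With only the miRNAs detected on every array in the fit, the adjusted p was 0.0454 at 24 hours and 0.0425 at 36 hours.

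After 1/3 PH, miR-30b-5p was at -1.34 and -1.04 at 6 hours, at -0.78, -0.99 and -1.34 at 12 hours, at -0.97, -0.87 and -0.88 at 24 hours and at -0.94, -1.39 and -1.02 at 36 hours. Its differences from normal liver ran from -0.38 to -0.10 with adjusted p from 0.397 to 0.926, and 8 of 11 arrays lay below all normal livers. The groups did not overlap at 6 hours, where 1/3 PH held 2 rats, or at 36 hours, again given without the share over all miRNAs. Normal liver was the highest of the 9 groups and stood above the next, 24 hours after 1/3 PH, by 0.098 against a larger SD of 0.07, the only such gap in any member's order. The 2 probes of miR-30b-5p did not vary together over the arrays (Pearson r = 0.04 over 26 arrays), the brighter carrying 89.5% of the signal and the dimmer being well above background on 11 arrays. Those of miR-30e did not either (r = -0.19), against r = 0.48 for miR-30c, 0.75 for miR-30a and 0.94 for miR-30d.

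miR-30c, the guide with 2 genomic sources, passed the test nowhere. Its group means ran from -0.95 at 12 hours after 1/3 PH to -1.29 at 24 hours after 2/3 PH, with normal liver at -1.08 ± 0.12 (SD, n = 3). The highest mean rested on the dim array, at -0.49, beside -1.09 and -1.25 on the other arrays of that group. Against normal liver its log2 fold changes ran from -0.14 to 0.14 after 1/3 PH and from -0.21 to -0.11 after 2/3 PH, with adjusted p of at least 0.433. Late against early it was -0.06 (95% interval -0.30 to 0.18) after 1/3 PH and -0.04 (-0.26 to 0.18) after 2/3 PH.

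miR-30d also passed the test nowhere. Normal liver was at -1.52, -1.09 and -1.50, and group means ran from -1.61 at 6 hours after 1/3 PH to -1.27 at 24 hours after 1/3 PH. Differences from normal liver lay between -0.24 and 0.10 after 1/3 PH and between -0.14 and 0.01 after 2/3 PH, with adjusted p of at least 0.671. Late against early it was 0.15 (95% interval -0.10 to 0.40) and -0.02 (-0.26 to 0.22). No neighbours in the orders of miR-30c and miR-30d differed by more than the larger SD.

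Scan day held more of the variation of miR-30d than group did. On the third scan day it was -1.33 to -0.97 (6 arrays, mean -1.14), against -1.70 to -1.25 (17 arrays, mean -1.47) on the first and -1.50 to -1.46 (3 arrays, mean -1.48) on the second. The share of its variation between scan days was 62%, against 36.6% for miR-30c, 5.91% for miR-30e, 5.58% for miR-30a and 4.5% for miR-30b-5p. Between slides the share was 66.9% for miR-30d, 42.8% for miR-30c, 23.6% for miR-30e, 23.5% for miR-30a and 15.5% for miR-30b-5p. Shares over 9 groups, 6 slides and 3 days rest on unlike numbers of levels. Without the dim array the mean of miR-30d on the third day was -1.17. miR-30c was also higher on that day, with a mean of -0.97, or -1.07 without the dim array, against -1.22 and -1.23 on the others. With scan day as a fixed block, miR-30d and miR-30c were still called in 0 of 18 comparisons each, with adjusted p of at least 0.307 and 0.221.

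**Figure D4:**
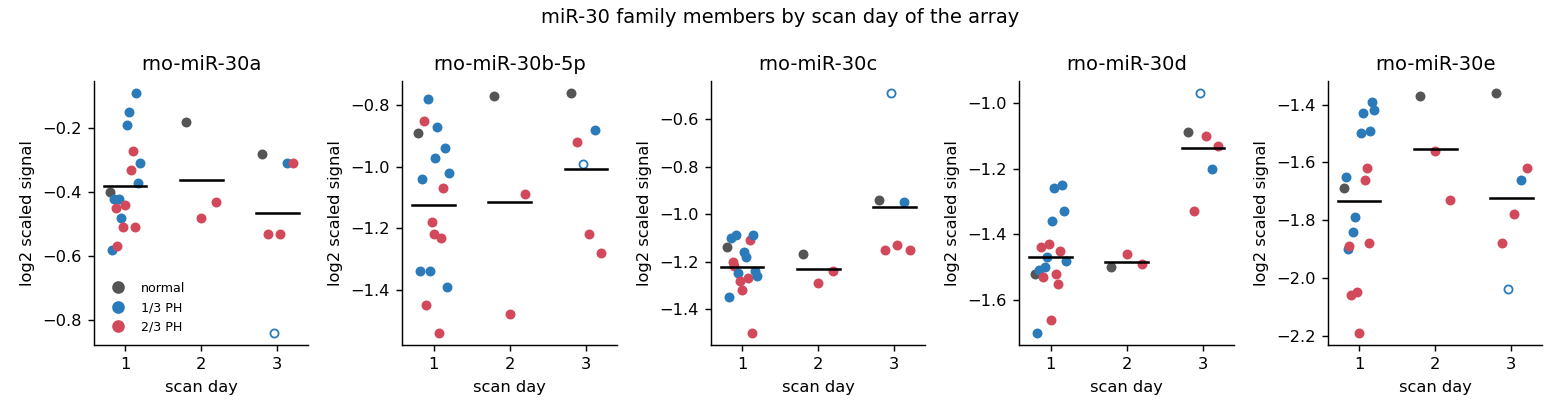
Log2 scaled signal (y axis) of each member by scan day (x axis), 1 point per array coloured by operation, with a bar at each day's mean and the dim array open. miR-30d on the third day has a mean of -1.14 against -1.47 on the first, and miR-30e has -1.72 against -1.73.

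No difference of a member between the operations passed the test. Of the 20 tests of 2/3 PH against 1/3 PH, 0 were called by limma and 1 had an unadjusted p under 0.05. The background was 0.0% of miRNAs at 6 and at 12 hours, 2.78% at 24 hours and 15.3% at 36 hours. The differences were below 0 in 16 of 20. The median over all miRNAs was itself -0.05, -0.10 and -0.12 at 6, 12 and 36 hours, against 0.03, -0.12 and -0.15 for the members. At 24 hours all 5 were below 0, from -0.37 for miR-30b-5p (95% interval -0.74 to -0.01, adjusted p = 0.406) to -0.15 for miR-30a (-0.39 to 0.09, adjusted p = 0.829), and their median was -0.19 against 0.01 for all miRNAs. At that time miR-30b-5p and miR-30d did not overlap between the operations, given without the share over all miRNAs. No slide held 24 hour arrays of both operations, so operation and slide cannot be told apart there. At 36 hours miR-30e differed by -0.20 (95% interval -0.47 to 0.06, adjusted p = 0.412) with no overlap, again given without the share over all miRNAs. All arrays of these 2 groups were read on different scan days, so that operation and scan day cannot be told apart there. In the opposite direction lay miR-30d at 6 hours, with 0.18 (-0.20 to 0.55, adjusted p = 0.946).

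Against normal liver 1 of the 40 tests of members was called. After 2/3 PH 19 of 20 differences were below 0, beside 0.0%, 6.94%, 18.1% and 18.8% of all miRNAs called at 6, 12, 24 and 36 hours, and the median over the 5 members was -0.23, -0.21, -0.21 and -0.14 (log2) at 6, 12, 24 and 36 hours, against 0.10, 0.04, 0.05 and 0.06 over all 144 miRNAs. In the same comparisons 5 of 16 markers were called at 24 hours, among them miR-142-3p (-1.05), miR-150 (-0.58) and miR-429 (1.08). At 36 hours 4 were called, among them miR-150 (-0.74) and miR-429 (1.28). The leukocyte miR-223 and miR-146a were called at neither time. The part of the markers in the members' values was not tested. After 1/3 PH 13 of 20 were below 0 and 0 were called (limma, 3 at an unadjusted p under 0.05), with medians of -0.24, -0.23, -0.01 and 0.02 against 0.06, 0.10, 0.01 and 0.08. The test called 0.694% of all miRNAs at 24 hours and 0.0% at 36 hours after 1/3 PH, the latter with 7 miRNAs at an unadjusted p under 0.05. These comparisons share the 3 normal livers.

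Members from neighbouring hairpins were set against each other on the same array, which removes the scaling between arrays. Only the change of such a ratio can be read, since its level depends on the probes. The log2 ratio of miR-30e to miR-30c rose after 2/3 PH from -0.76 ± 0.09 (SD, n = 6) at 6 and 12 hours to -0.42 ± 0.09 (n = 6) at 24 and 36 hours, and all 6 late arrays lay above all 6 early ones. The difference of 0.34 passed an exact two-sided permutation test (p = 0.00216, adjusted p = 0.013 over 6 tests), where 0.00216 is the smallest p the design allows. Early and late arrays of 2/3 PH shared no slide, so slide and time cannot be told apart in this difference. In normal liver the ratio of miR-30e to miR-30c was -0.39 ± 0.18 (n = 3). After 1/3 PH the difference was 0.45 (exact permutation test, adjusted p = 0.0844), and 0.26 without the dim array (exact, adjusted p = 0.186).

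The ratio of miR-30a to miR-30c had a difference of 0.16 after 2/3 PH and 0.40 after 1/3 PH, both with adjusted p = 0.0519 (exact permutation test), and the latter was 0.19 without the dim array (exact, adjusted p = 0.114). For miR-30b-5p to miR-30d the differences were -0.12 after 2/3 PH (exact, adjusted p = 0.462) and -0.03 after 1/3 PH (exact, adjusted p = 0.814). Thus 1 of 6 ratios passed. With normexp the miR-30e to miR-30c difference after 2/3 PH was 0.08 (exact, adjusted p = 0.377), and with the deposited values 0.26 (exact, adjusted p = 0.0779).

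**Figure D5:**
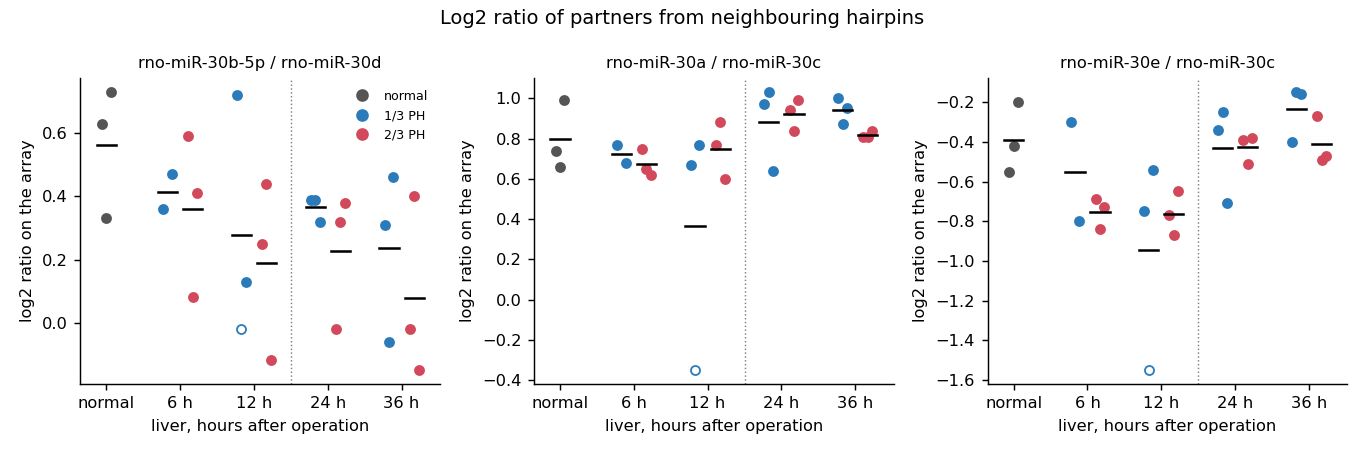
Log2 ratio on the same array (y axis) of 3 pairs of members from neighbouring hairpins, by group and hours (x axis), with a bar at each group mean, the dim array open and a dotted line between early and late hours. For miR-30e to miR-30c after 2/3 PH the early arrays have a mean of -0.76 and the late ones of -0.42.

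Of the 6 opposite arms 3 could be tested. rno-miR-30a* and rno-miR-30e* were detected on all 26 arrays and rno-miR-30b-3p on 18, while rno-miR-30c-2* was detected on 1 and rno-miR-30c-1* and rno-miR-30d* on 0. After 2/3 PH, rno-miR-30a* fell late against early by 0.42 on the log2 scale (SE 0.13, adjusted p = 0.0142) and rno-miR-30b-3p fell by 0.63 (SE 0.20, adjusted p = 0.0192), while rno-miR-30e* had -0.24 (SE 0.17, adjusted p = 0.326). That comparison called 34.7% of all miRNAs, 23 of the 50 of them lower. It also called 5 of 16 markers, among them miR-146a (-0.60), miR-150 (-0.51) and miR-429 (0.83), but not the leukocyte miR-142-3p or miR-223. The part of the markers in these values was not tested. After 1/3 PH the values of the 3 arms were -0.30, -0.28 and -0.39, with adjusted p = 0.311, 0.572 and 0.311. For the falls after 2/3 PH slide and time cannot be told apart, because no slide held both early and late arrays. rno-miR-30b-3p was detected on all arrays of 6 and 12 hours after 2/3 PH but on 1 of 3 at 24 hours and 2 of 3 at 36 hours, so its late level is partly that of the floor. Its call was lost with scan day as a block (-0.47, adjusted p = 0.0903), with slide as a random block (-0.60, 0.0582) and without replicate 2 of 6 hours (-0.53, 0.0593), replicate 3 of 12 hours (-0.52, 0.0589) or replicate 2 of 36 hours (-0.48, 0.0731), and the call of rno-miR-30a* held without any 1 of the 26 arrays (-0.50 to -0.38). Unscaled arrays, the 75th percentile over all probes and normexp ended both calls, with -0.32 (adjusted p = 0.438), -0.49 (0.591) and -0.11 (0.999) for rno-miR-30a* and -0.53 (0.204), -0.70 (0.328) and -0.07 (0.999) for rno-miR-30b-3p. The total gene signal (-0.66, 0.0779) and the brightest probe alone (-0.19, 0.621) also ended that of rno-miR-30b-3p. Over the 26 arrays miR-30a and rno-miR-30a* had r = -0.55, or -0.26 without the dim array, and miR-30e and rno-miR-30e* had r = -0.12. Arrays share slides, depth and scaling, so these describe the arrays.

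Within the family, miR-30a and miR-30e were the most alike pair, with r = 0.72 over 26 arrays and 0.89 over the 9 group means. miR-30c and miR-30d had r = 0.69, and 0.72 in the deviations from group means, beside the scan day difference both share. miR-30b-5p had its highest within-family value with miR-30c (0.40), and miR-30e and miR-30c, from neighbouring hairpins, had -0.02, or 0.32 without the dim array.

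Among the 77 other miRNAs detected on every array, those most like the mean of the 5 members were rno-miR-193 (r = 0.68), rno-miR-142-3p (0.60), rno-miR-140 (0.58), rno-miR-192 (0.57) and rno-miR-101b (0.53). By member, the closest of 81 candidates was rno-miR-29c for miR-30a (r = 0.73, or 0.59 without the dim array, where miR-30e had 0.70), rno-miR-23a for miR-30b-5p (0.55), rno-miR-30e* for miR-30c (0.71, or 0.53 without the dim array), rno-miR-122* for miR-30d (0.74, or 0.66 without the dim array, where rno-miR-365 had 0.69) and rno-miR-101b for miR-30e (0.89).

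Other conserved families of liver miRNAs are given by counts. Late against early, of 4 tests of the 2 miR-101 miRNAs 4 were called higher. Of 4 tests of the 2 miR-26 miRNAs 2 were called lower, and of 14 tests of the 7 let-7 miRNAs 3 were called lower. For the miR-30 family 3 of 10 were called higher. Called or not, values below 0 were 0 of 4 for miR-101, 4 of 4 for miR-26, 13 of 14 for let-7 and 4 of 10 for miR-30. Against normal liver after 2/3 PH, 2 of 8 tests were called lower for miR-26 and 2 of 8 for miR-101. For let-7 0 of 28 were called (limma, 3 at an unadjusted p under 0.05), against 1 of 20 called lower for miR-30. Called or not, values below 0 were 7 of 8 for miR-26, 6 of 8 for miR-101, 7 of 28 for let-7 and 19 of 20 for miR-30. Over all miRNAs 9.72% were called late against early after 1/3 PH and 34.7% after 2/3 PH, and 0.0% to 18.8% after 2/3 PH against normal liver. These counts were not tested against each other.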

How the data were processed

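Per the labels and file headers, the authors hybridized total RNA of each liver to a 1-colour (Cy3) Agilent rat miRNA array, with 1 array for 1/3 PH excluded for poor quality, and extracted spot intensity with Feature Extraction 10.7.3.1 (protocol miRNA_107_Sep09_105, design annotation rn4), background-subtracted and not normalized between arrays. The deposited log2 values, a table already normalized between arrays, served as an alternative.

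Processed signals of spots not marked as outliers gave a mean per probe, and these means were added up per miRNA. The scale of an array was the 75th percentile of 109 probes that stood well above background on all 26 (7 of them miR-30 probes). Scaled values under the dimmest such call on the array were raised to it before log2. 182 of 2600 member spots had been marked. Rats were grouped by title. limma 3.58.1 (R 4.3.3, lmFit and eBayes) fitted 9 groups to 144 miRNAs, those that some group had detected on all its arrays, with 18 contrasts, Benjamini-Hochberg adjustment within each and a threshold of 0.05. Residual degrees of freedom were 17, and 26 arrays limit the precision. Ratios were tested by exact permutation (scipy 1.17.1). In simulated data, where 30 of 144 miRNAs had been shifted by log2 1, limma recovered 73.8% for 2/3 PH against 1/3 PH at 24 hours, with 4.01% of calls false. The simulated noise was independent between arrays, without slides or scan days. The members' differences in that comparison were -0.37 to -0.15, and recovery of changes of that size was not simulated.

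Alternatives covered scaling, background, probe summary, filters, floor, slide and scan day as blocks, the deposited values and leaving out each array. Normexp background correction added an offset of 50 units to each spot, which shrinks the fold changes of dim miRNAs. Named miRNAs were the 5 members, their opposite arms, the 5 miRNAs most like the family mean and the closest to each member. Lists for let-7, miR-26, miR-101 and cell type markers served as counts. The family, lists and rules were chosen with earlier results of these data known.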

Additional observations from a re-analysis of the deposited data

Results flagged for a closer look

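At 24 hours rno-miR-30d lay above the mean of normal liver on all 3 arrays of 1/3 PH (mean difference 0.10, log2) and below it on all 3 arrays of 2/3 PH (mean difference -0.14), a difference between the operations of -0.23. Neither value passed limma's test against normal liver (adjusted p = 0.926 and 0.671), nor did the difference itself (adjusted p = 0.808), and both groups overlapped with normal liver. Scan day, which held more of the variation of rno-miR-30d than group, was the first for all 3 arrays of 2/3 PH and for 2 of 3 of 1/3 PH. Slide held 66.9% of that variation. No slide held 24 hour arrays of both operations, so operation and slide cannot be told apart, also within a scan day. Among arrays of the first day the value against the 1 normal array was 0.21 after 1/3 PH and 0.01 after 2/3 PH, so that the latter was not below it there, and the operations differed by -0.20. On the third day the 1 array of 1/3 PH differed from the 1 normal array by -0.11. With scan day as a block the values were 0.09 and -0.04, and -0.13 between the operations (adjusted p = 0.881, 0.879 and 0.811).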

How the results depend on the processing

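The numbers of called members changed with the processing. Of 20 tests of 1/3 PH against normal liver 0 were called, 1 with the 75th percentile over all probes, a floor of 1 signal unit, quantile normalization or only miRNAs detected on every array, 3 at an unadjusted p, and 0 to 1 without single arrays. For 2/3 PH against normal liver 1 was called, 0 with unscaled arrays, the 75th percentile over all probes, normexp, the deposited values, slide as a fixed block (15 of 20 tests could be fitted) or only the groups compared, 2 with quantile normalization or a floor of 1 unit, 4 with miRNAs detected on every array, 5 unadjusted, and 0 to 3 without single arrays. Between the operations 0 were called, 3 with the 75th percentile over all probes, 1 unadjusted, and 0 without any single array. Late against early 3 of 10 were called, 0 with no scaling, normexp, the total gene signal, quantile normalization or the 75th percentile of all probes, 1 with the 75th percentile without miR-30 probes, the filter of detection on at least 1 array, slide as a random block or only the groups compared, and 1 to 3 without single arrays. Slide as a fixed block could not be fitted there. Over the 4 times 1 of 15 was called, 0 with unscaled arrays, the 75th percentile over all probes, normexp, the brightest probe, the total gene signal, the deposited values, detection on at least 1 array, slide (5 of 15 tests could be fitted) or scan day as a fixed block or only the groups compared, 3 unadjusted, and 0 to 2 without single arrays. Of 6 ratios 1 passed, 0 with normexp or the deposited values, and 1 to 4 without single arrays. The test of the operations' late against early difference called 0 of 5 under every alternative that could be fitted. Reversed values were, with the 75th percentile over all probes, late against early after 1/3 PH for miR-30a (-0.06) and miR-30e (-0.02) and 2/3 PH against 1/3 PH at 6 hours for miR-30c (-1.24), and with normexp miR-30e late against early after 1/3 PH (-0.09) and over the 4 times of 2/3 PH (0.14). The 75th percentile over all probes moved all miRNAs. Their median was -1.32 between the operations at 6 hours, where its 3 calls lay (-1.29, -1.24 and -1.44). It was -0.95 at 12 hours after 1/3 PH against normal liver, where miR-30e was called (-1.47). In the scaling used here these medians were -0.05 and 0.10, so those calls are not particular to the members. Of 4242 single values recomputed, opposite arms included, 74 lost and 42 gained a call, and 218 uncalled values changed sign. The causes were not tested. No paired analysis was possible because replicate numbers in the labels exist for normal liver alone. Signal over background limits the dimmer probes and the opposite arms.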
